A study of Homo sapiens with 4 samples.

Results

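Peaks of APOBEC3B (A3B) at the promoters of protein-coding genes were examined in 2 cell lines derived from uveal melanoma, a cancer of the pigment cells of the eye. A3B is a cytidine deaminase, which turns cytosine into uracil in single-stranded DNA. Chromatin was cross-linked, sheared and precipitated with an antibody against A3B or, for the control, with normal rabbit IgG, from OMM2.3 cells and from 92.1 cells. No treatment or genetic change was recorded for either line, and the 4 groups (OMM2.3 A3B, OMM2.3 IgG, 92.1 A3B and 92.1 IgG) held 1 library each. The IgG libraries entered as the background of the peak calls and were not analysed on their own here. A peak counted as a promoter peak where it overlapped, by at least 1 bp, the window of 1 kb either side of the 5' end of a protein-coding gene record of GENCODE 44, on chromosomes 1 to 22 of GRCh38. This 5' end is called the start below, and distances from it are positive downstream and negative upstream along the gene. Of 192845 deposited peaks, 3731 met this definition. They were 916 of the 55061 OMM2.3 peaks on these chromosomes (1.66%, 95% interval 1.56 to 1.77) and 2815 of the 134484 peaks of 92.1 (2.09%, 2.02 to 2.17). The files listed 56167 and 136678 peaks with the sex chromosomes and other sequences included.

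With 1 library per group no difference between the lines or from the control could be set against a spread between replicates, so no test was made. The intervals given are Wilson intervals for shares and, for a ratio of shares, intervals from the counts behind it. They cover counting error only, and neighbouring genes that share sequence are not independent counts. The numbers of reads per library were not in the files used here. The fragments stacked at each summit could be worked back from the deposited values for 99.99% of the peaks in each line. The median promoter peak had 6 fragments in OMM2.3 and 4 in 92.1, so that a single peak is a count of a few fragments.

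A promoter is the stretch around a start at which RNA polymerase II is loaded and transcription begins. Many mammalian promoters lie in CpG islands, where the dinucleotide CG escapes the depletion seen in the rest of the genome, and DNA there is opened during transcription. R-loops, in which the nascent RNA pairs with its template and leaves the other strand single, form behind the polymerase and are common near starts with skewed G and C content. Single-stranded DNA is the substrate of A3B, and it deaminates preferentially cytosines that follow a thymine.

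The sequences of 8 sites are given here, each a summit with 50 bp on either side, 5' to 3' on the strand of the gene, from GRCh38, with every CG in capitals. They were picked by hand among the named sites that touch no annotated exon and lie outside repeated sequence, as examples of differing CG content, and are not a sample of all sites. MRTO4, a ribosome assembly factor (chr1:19251607-19251707, plus strand, summit at -148 bp), had 12 CG and IFT25, a subunit of intraflagellar transport (chr1:53946121-53946221, minus strand, summit at -472 bp), had 9. LMX1A, a LIM-homeobox transcription factor, is shown at its 3 sites: 9 CG at the inner OMM2.3 site (chr1:165356904-165357004, minus strand, summit at -239 bp), 1 at the outer OMM2.3 site (chr1:165357691-165357791, minus strand, summit at -1026 bp) and 1 at the 92.1 site that overlaps the latter (chr1:165357565-165357665, minus strand, summit at -900 bp). ITSN2, an endocytic scaffold protein (chr2:24361150-24361250, minus strand, summit at -664 bp), held one of the highest promoter peaks of 92.1, with 6 CG. RPA2, the subunit of the single-strand binding protein RPA on which much of the replication stress response is read out (chr1:27915037-27915137, minus strand, summit at -341 bp), had 3. DLX6, a homeobox factor (chr7:97004538-97004638, plus strand, summit at -965 bp), had 0 CG.
MRTO4, 92.1: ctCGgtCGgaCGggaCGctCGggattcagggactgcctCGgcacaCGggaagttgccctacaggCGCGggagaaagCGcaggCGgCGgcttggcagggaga
IFT25, 92.1: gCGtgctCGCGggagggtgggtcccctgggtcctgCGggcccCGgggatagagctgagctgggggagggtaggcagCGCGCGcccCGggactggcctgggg
LMX1A, OMM2.3: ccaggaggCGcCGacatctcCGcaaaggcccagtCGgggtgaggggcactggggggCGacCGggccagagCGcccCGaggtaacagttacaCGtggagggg
LMX1A, OMM2.3, outer site: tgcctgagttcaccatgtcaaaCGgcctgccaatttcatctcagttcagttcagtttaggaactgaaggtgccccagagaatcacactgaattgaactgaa
LMX1A, 92.1: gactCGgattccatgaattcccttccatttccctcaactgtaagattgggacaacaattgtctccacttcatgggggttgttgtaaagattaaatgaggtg
ITSN2, 92.1: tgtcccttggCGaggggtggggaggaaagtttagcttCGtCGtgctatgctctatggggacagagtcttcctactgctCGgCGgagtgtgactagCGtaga
RPA2, 92.1: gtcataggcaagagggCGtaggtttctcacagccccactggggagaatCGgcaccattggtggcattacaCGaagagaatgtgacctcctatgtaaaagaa
DLX6, 92.1: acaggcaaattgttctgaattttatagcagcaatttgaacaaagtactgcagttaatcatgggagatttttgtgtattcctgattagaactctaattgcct

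In OMM2.3, 943 of the 19111 protein-coding genes had a promoter peak, which is 4.93% (4.64 to 5.25). In 92.1, 2909 genes had one, or 15.2% (14.7 to 15.7). Most hit genes carried a single peak, 909 genes in OMM2.3 and 2710 in 92.1. A further 34 genes had 2 peaks in OMM2.3, while 193 genes had 2 and 6 had 3 in 92.1. Some peaks were counted for several genes: 54 member peaks of OMM2.3 and 287 of 92.1 touched the windows of at least 2 genes, up to 3 and 4.

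The local expectation was measured with the same 2 kb window moved by 20, 30, 40 and 50 kb to either side of each start and kept where it overlapped no protein-coding promoter window and held no unknown base. The 142186 displaced windows lie in the same neighbourhoods, a choice meant to match the copy number and coverage of the promoters. Neither was measured here, and the windows differ from promoters in GC content and repeated sequence, as given below. In OMM2.3, 5.73% of them held a peak, so that 1096 hit genes would be had at the displaced rate against the 943 counted (ratio 0.860, 0.806 to 0.919). In 92.1, 11.7% held a peak, which corresponds to 2243 genes against 2909 (ratio 1.30, 1.25 to 1.34). Promoter windows therefore held a peak less often than their surroundings in OMM2.3 and more often in 92.1. Both intervals excluded 1, but they allow for counting error only. Whether the 2 lines differed was not tested.

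The OMM2.3 interval did not exclude 1 in every setting, whereas the 92.1 interval did so except among the highest peaks. Repeated sequence was rarer at promoters: none of 10 sampled 32-base words recurred in the genome in 63.0% of promoter windows and in 33.3% of displaced windows. Among the peaks themselves, 11.2% of the promoter peaks of OMM2.3 lay in repeated sequence against 21.7% of the peaks in displaced windows, and in 92.1 the shares were 6.43% and 15.6%. Within windows free of repeated words the ratio was 0.941 (0.861 to 1.03) in OMM2.3, an interval that includes 1, and 1.30 (1.24 to 1.36) in 92.1. With peaks in repeated sequence left out, it was 0.980 (0.914 to 1.05) and 1.44 (1.38 to 1.49). Standardised instead to the GC content of the promoter windows, it was 0.620 (0.575 to 0.669) in OMM2.3 and 1.16 (1.10 to 1.21) in 92.1. For peaks with -log10 p of at least 5 the direction turned in both lines, on 2 genes in OMM2.3 (1.49, 0.326 to 6.79) and 16 in 92.1 (0.869, 0.518 to 1.46).

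Among the 8 bins of 250 bp in the window, the ratios of the lines to their surroundings lay farthest apart just upstream of the start. Each gene's surroundings from 2 to 5 kb on either side served as the flank, with 25.9 summits per Mb in OMM2.3 and 57.5 in 92.1. The 24 flank bins of 250 bp ranged from 19.9 to 31.2 and from 52.1 to 63.2 summits per Mb. In the 250 bp upstream of the start, OMM2.3 had 73 summits, or 15.3 per Mb, below every flank bin (ratio to the flank 0.589, 0.467 to 0.743). In the same bin 92.1 had 422 summits, or 88.3 per Mb, above every flank bin (1.54, 1.39 to 1.69). Without the peaks in repeated sequence these ratios were 0.670 (0.526 to 0.854) and 1.72 (1.55 to 1.90), so both departures at the start itself were there without repeats, unlike that of the whole OMM2.3 window.

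On the OMM2.3 side the lower density was upstream. The kb upstream of the start had 19.0 summits per Mb (0.732, 0.657 to 0.817), and the bin from -750 to -500 bp had 17.4 (0.670, 0.539 to 0.833). The kb downstream had 24.2 (0.932, 0.845 to 1.03), within the range of the flank bins. Without peaks in repeated sequence the upstream kb stayed lower, at 0.80 (0.712 to 0.899), and the downstream kb was at 1.05 (0.949 to 1.17). Beyond the window, from -2000 to -1000 bp, the level was that of the flank, with 25.8 summits per Mb (0.997, 0.906 to 1.10).

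In 92.1 the higher density was on both sides. It was 72.4 summits per Mb in the kb upstream (1.26, 1.19 to 1.33) and 72.8 in the kb downstream (1.27, 1.19 to 1.34), and it fell away with distance: 82.0 in the first 250 bp downstream, 72.2, 70.1 and 67.0 in the next bins out to 1 kb, and 64.4 from 1 to 2 kb downstream (1.12, 1.05 to 1.19). Upstream from -2000 to -1000 bp it was 59.7 (1.04, 0.974 to 1.10).

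**Figure D1:**
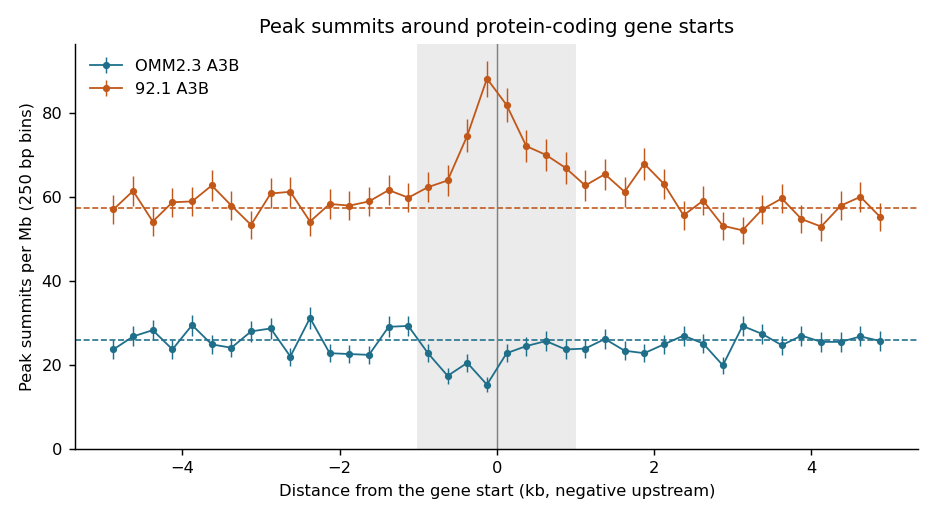
Peak summits per Mb (vertical axis) in 250 bp bins by distance from the gene start in kb (horizontal axis, negative upstream) for OMM2.3 A3B and 92.1 A3B. Bars are counting standard errors, dashed lines the mean level from 2 to 5 kb on either side (25.9 and 57.5 per Mb), and grey the promoter window. In the bin just upstream of the start 92.1 rises to 88.3 and OMM2.3 dips to 15.3.

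Counted once, at the nearest start, 43.4% of the 778 OMM2.3 summits within 1 kb lay upstream (40 to 47.0) and 48.5% of the 2521 of 92.1 (46.6 to 50.5). The OMM2.3 interval lies below 50% and the 92.1 interval includes it. The median summit lay 132 bp downstream of the start in OMM2.3, with quartiles at -462 and 556 bp, and 23 bp downstream in 92.1, with quartiles at -406 and 472 bp. Within 100 bp of the start there were 57 summits in OMM2.3 and 322 in 92.1. Because an overlap of 1 bp was enough, 138 OMM2.3 members (15.1%) and 294 of 92.1 (10.4%) had their summit beyond 1 kb, up to 1468 and 1461 bp away. Counting a gene only where the summit itself lay in its window left 798 genes in OMM2.3 and 2631 in 92.1.

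The ratios of the lines lay near each other at CpG-poor promoters and apart at CpG-rich ones. Promoter windows were put in 5 equal groups by CpG observed over expected, which is the number of CG divided by the number that the C and G content would give, from a median of 0.189 in the lowest group to 0.829 in the highest. In the lowest group the interval of either line's ratio included 1, with 5.15% of promoters hit in OMM2.3 (ratio 1.04, 0.902 to 1.21) and 11.8% in 92.1 (1.09, 0.989 to 1.19). In the highest group 3.92% were hit in OMM2.3 (0.727, 0.617 to 0.857) and 16.2% in 92.1 (1.35, 1.25 to 1.46).

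Between these ends the OMM2.3 ratio went down from group to group, through 0.942, 0.833 and 0.766. The 92.1 ratio was 1.27, 1.44 and 1.32 in the middle groups, so its highest value was not at the highest CpG content. The displaced windows of the 5 groups had similar GC, with medians from 42.1% to 45.3%, whereas the promoter medians ran from 44.7% to 61.0%. Within windows free of repeated words the ratio in the highest group was 0.812 (0.663 to 0.994) in OMM2.3 and 1.29 (1.17 to 1.43) in 92.1. The steps between were then uneven in OMM2.3, at 1.15, 0.897, 0.991 and 0.913 from the lowest group up, each with an interval that includes 1.

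**Figure D2:**
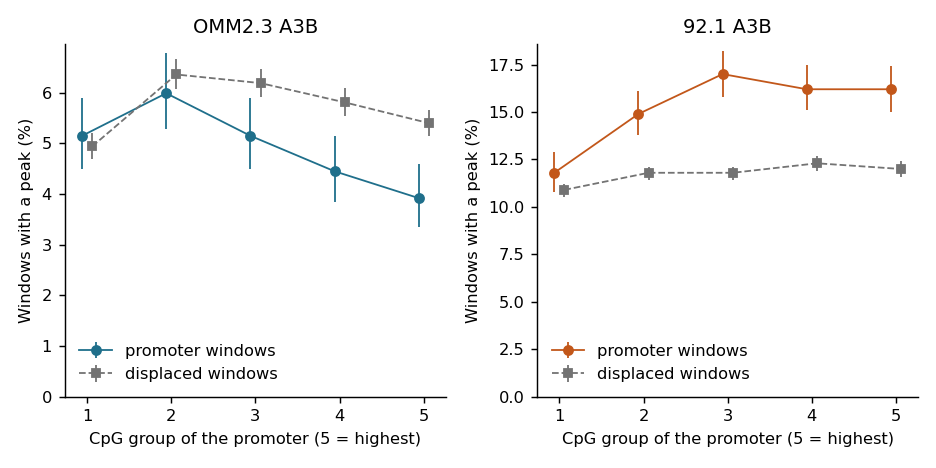
Percent of windows with a peak (vertical axis) in 5 equal groups of promoters by CpG observed over expected (horizontal axis, 5 highest), for OMM2.3 A3B and 92.1 A3B. Circles are promoter windows and squares the displaced windows of the same genes, with Wilson 95% intervals. In the highest group 3.92% of OMM2.3 promoters and 16.2% of 92.1 promoters held a peak, against 5.40% and 12% of displaced windows.

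Close to the start the same groups spread further apart. Within 250 bp of the starts of the highest CpG group OMM2.3 had 15 summits, or 7.85 per Mb against 24.9 in the flank of those genes (ratio 0.316, 0.189 to 0.527). In the lowest group it had 44 summits, or 23 per Mb against 22.7 (1.01, 0.745 to 1.38). For 92.1 the highest group had 176 summits, or 92.1 per Mb against 59.3 (1.55, 1.33 to 1.82), and the lowest 113 summits, or 59.1 per Mb against 55.2 (1.07, 0.884 to 1.30). The ratio of 92.1 reached 1.76 (1.51 to 2.05) in the middle group. Without peaks in repeated sequence the highest group was at 0.373 (0.223 to 0.623) in OMM2.3, on the same 15 summits, and at 1.74 (1.48 to 2.04) in 92.1.

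Promoters that share their window with another protein-coding gene, most of them with one on the opposite strand, gave a contrast of the same direction. Of 3898 such genes, 3.64% were hit in OMM2.3 (ratio 0.618, 0.522 to 0.731) and 16.3% in 92.1 (1.36, 1.26 to 1.47). Over the 15213 genes with a window of their own the ratios were 0.925 (0.861 to 0.993) and 1.28 (1.23 to 1.33).

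The sites themselves were richer in GC than a promoter position at the same distance. In OMM2.3 the 100 bp on either side of the summit averaged 57.9% GC, 3.25 percentage points (SE 0.371, over 778 summits) above the mean of all promoters at that distance, and 64.3% of the sites were higher. In 92.1 the average was 56.6%, 1.34 points above (SE 0.226, over 2521 summits), with 56.6% of the sites higher. The sites in displaced windows exceeded the mean of their own window by 2.22 points in OMM2.3 and 0.551 points in 92.1, and those at promoters by 1.83 and 1.09 points. With the whole window as the reference, the sides of the start differed in sign. The comparison at the same distance was not split by side, so the part of the GC of promoters themselves was not tested. Against the GC of the whole window, upstream summits differed by -1.33 points (SE 0.449) in OMM2.3 and -1.84 (SE 0.282) in 92.1, and downstream summits by 4.0 (SE 0.413) and 3.53 (SE 0.263). The same stretch of promoter peaks held on average 8.58 CG in OMM2.3 and 9.43 in 92.1, against 3.40 and 2.72 at the peaks in displaced windows.

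The dinucleotide TC, read on either strand, made up 12.5% of the positions under OMM2.3 promoter peaks and 12.3% under those in displaced windows. The values in 92.1 were 12.3% and 12.2%. The dinucleotide that A3B prefers was thus about as common at promoter sites as at displaced ones, while CG was more common at promoter sites. Promoter windows as a whole had a median CpG observed over expected of 0.618, against group medians of 0.200 to 0.239 in displaced windows. CG was not counted at promoter positions without a peak, so whether the sites differ from other promoter positions in CG was not tested.

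Promoter peaks were of the same height as the others. The fold enrichment is the ratio of fragments at the summit to the local IgG background, with 1 added to each, after the fragments were multiplied by a scaling of 0.8672 in OMM2.3 and 1.0 in 92.1. Its median was 2.60 at OMM2.3 promoters and 2.60 in the displaced windows, and 2.65 and 2.63 in 92.1. The median -log10 p was 2.34 at both in OMM2.3, and 2.66 at promoters and 2.62 in displaced windows in 92.1. The background estimated from IgG at the summits had the same median at promoters and displaced windows, 1.15 in OMM2.3 and 0.957 in 92.1. The tallest promoter peaks reached a -log10 p of 7.77 in OMM2.3 and 6.64 in 92.1, while the highest peak of each list anywhere on these chromosomes reached 21.7 and 68.4. Median widths were 268 bp at OMM2.3 promoters and 252 bp at those of 92.1.

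Few promoter peaks passed a threshold that allows for the number of places tested. A q value of at most 0.05 was met by 2 promoter peaks in OMM2.3 (0.218%) and 3 in 92.1 (0.107%), against 0.351% and 0.149% of all peaks of the lines. In displaced windows it was met by 2 of 6749 OMM2.3 peaks (0.0296%) and 14 of 14245 peaks of 92.1 (0.0983%). A p of at most 1e-05 was met by 2 promoter peaks in OMM2.3 (0.218%, 0.0599 to 0.793) and 15 in 92.1 (0.533%, 0.323 to 0.877), against 0.728% and 0.853% of all peaks and 0.133% and 0.80% of the peaks in displaced windows. With 2 such OMM2.3 members, the share was above that of displaced windows and below that of all peaks. The counts of genes above are therefore almost entirely of peaks called at an unadjusted p of 0.05.

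The highest OMM2.3 promoter peak was at KCNK6, a potassium channel subunit. The peak at chr19:38319738-38320132 had its summit 65 bp downstream of the start, in an exon, with 12 fragments, a fold enrichment of 5.56 and a -log10 p of 7.77. The next was at TUBB4A, a beta-tubulin of neural tissue, at chr19:6502035-6502410 with the summit in an exon at 647 bp, 11 fragments and a fold of 5.13. These were the 2 members with a q of at most 0.05, and neither promoter had a peak in 92.1, where 15.2% of all promoters had one.

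The third to the fifth OMM2.3 peaks were lower. USP17L17, a deubiquitinase gene of a tandem array, had 28 fragments over an IgG background of 9.23 (fold 2.47), and every sampled 32-base word at its summit recurred in the genome, with a median of 21.0 copies. OR11H2, an olfactory receptor gene, was also in repeated sequence (77.8% of words) and had 10 fragments in OMM2.3 (fold 4.08, summit at 450 bp) and 5 in 92.1 (fold 2.29, summit at 587 bp). SLC39A4, a zinc importer, had 10 fragments and a fold of 4.04 with the summit at -234 bp, outside any annotated gene. The reads of USP17L17 and OR11H2 could be shared with near-identical copies, so the assignment to these genes is uncertain.

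In 92.1 the highest promoter peak was at HHIPL2, related to the hedgehog-binding protein HHIP, with the summit in an intron 996 bp downstream of the start (chr1:222546964-222547309). It had 9 fragments, a fold of 4.80 and a -log10 p of 6.64. LGALS9B, a galectin gene, followed with 8 fragments and a fold of 4.79 at 364 bp, but 66.7% of the words there recurred elsewhere. CTXN1, which encodes the neuronal protein cortexin, had 8 fragments and a fold of 4.73 at 528 bp. WNT1, a Wnt ligand, had 8 fragments and a fold of 4.48 at 273 bp, in an exon (chr12:48978432-48978742). ITSN2, whose site is printed above, had 8 fragments and a fold of 4.18. None of these 5 promoters had a peak in OMM2.3, where only 4.93% of all promoters had one.

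Both lines had a peak at 156 promoters, 0.816% of all. In the displaced windows 0.799% held a peak of both lines, which corresponds to 153 genes (ratio 1.02, 0.865 to 1.21). The shared genes were 16.5% of the OMM2.3 genes (14.3 to 19.0) and 5.36% of the 92.1 genes (4.6 to 6.24). In displaced windows the same shares were 13.9% and 6.81%. The number of promoters hit in both lines was thus within counting error of the number at the displaced rate. With peaks in repeated sequence left out, the ratio was 1.28 (1.07 to 1.54), within windows free of repeated words 1.08 (0.868 to 1.36), and standardised to GC 0.694 (0.577 to 0.836), so that its position relative to 1 depended on the reference chosen.

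A shared promoter was seldom a shared site. The peaks of the lines overlapped in 49 of the 156 promoters (31.4%, 24.6 to 39.1) and in 312 of the 1136 displaced windows hit in both (27.5%, 24.9 to 30.1). The median gap between the nearest summits was 541 bp at promoters and 622 bp in displaced windows. The summits lay on the same side of the start in 96 promoters and on opposite sides in 60.

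**Figure D3:**
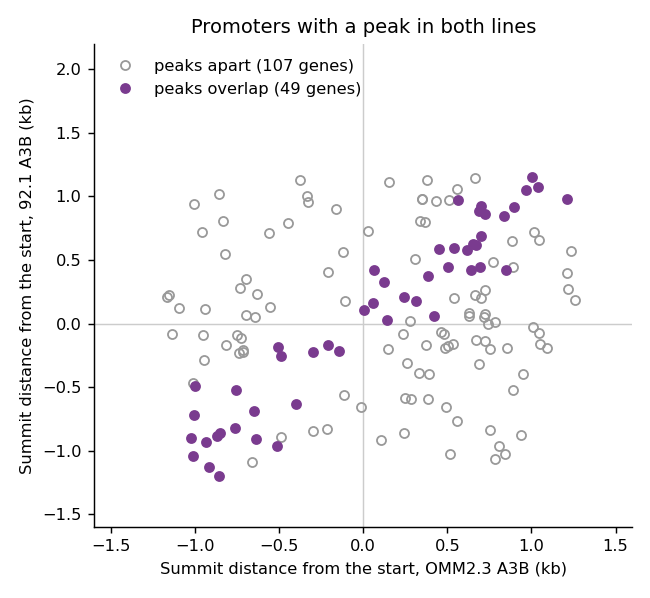
Distance of the summit from the start in kb in OMM2.3 A3B (horizontal axis) and 92.1 A3B (vertical axis) for the 156 promoters with a peak in both lines, using the closest pair of summits. Filled circles are the 49 promoters whose peaks overlap, which lie along the diagonal, and open circles the others, which scatter over all quadrants.

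Among the shared promoters, LMX1A had the highest peaks when ranked by the lower of the lines. It had 2 peaks in OMM2.3, with 7 fragments and a fold of 3.44 at -239 bp and 6 fragments and a fold of 3.02 at -1026 bp. The 92.1 peak, with 7 fragments and a fold of 3.59 at -900 bp, overlapped the outer one. MRTO4 had an OMM2.3 peak of 8 fragments (fold 3.87) at 969 bp and a 92.1 peak of 5 fragments (fold 3.20) at 1051 bp, in the same intron, and a second 92.1 peak at -148 bp (fold 2.63). IFT25 had 6 fragments in each line, but at -1013 bp in OMM2.3 (fold 3.02) and at -472 bp in 92.1 (fold 3.73). Both of its sites lay in an intron of LRRC42, which starts from the same region on the other strand.

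KCNE4, an accessory subunit of potassium channels, was hit on opposite sides of the start, at -957 bp in OMM2.3 (6 fragments, fold 3.02) and at 720 bp in 92.1 (5 fragments, fold 3.20). KRT13, a keratin of stratified epithelia, was hit in an exon at 313 bp in OMM2.3 (6 fragments) and at 178 bp in 92.1 (5 fragments), with overlapping peaks. Folds there were 3.02 and 3.20. The lower -log10 p of IFT25, KCNE4 and KRT13 was 3.11, a value shared by LRRC42, PRRX1, RALGAPA2, SLC23A1, UBXN6 and VWA3B. The genes named from this tie were taken by symbol.

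The shared promoters with the summits nearest to the start were led by MT1F, a metallothionein that binds zinc and copper. Its summits lay 5 bp from the start in OMM2.3 and 108 bp in 92.1, with 5 fragments and folds of 2.60 and 2.65, in an exon. FADS3, of the fatty acid desaturase family, had 9 fragments (fold 3.97) at 58 bp in OMM2.3 and 5 fragments (fold 2.29) at 163 bp in 92.1. PRM2, a protamine that packs sperm DNA, had 8 fragments at 150 bp in OMM2.3 (fold 3.74) and 4 at -202 bp in 92.1 (fold 2.60), and lies within the RMI2 gene. CSTL1, a cystatin-like gene, had 5 and 3 fragments in a sequence with a median of 560 copies in the genome at the OMM2.3 summit, so its reads cannot be placed.

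The most peaks at a promoter were 2 in OMM2.3, at 34 genes, and 3 in 92.1, at 6 genes. The genes named here are the 3 of each tie with the highest peak, taken by symbol where heights were equal. In OMM2.3, besides LMX1A, these were BYSL, a factor of small ribosomal subunit assembly, with OMM2.3 peaks at -709 bp (7 fragments) and 253 bp (6 fragments), and CLSTN1, a calsyntenin of the synapse, with OMM2.3 peaks at 602 bp (7 fragments) and -600 bp (8 fragments). In 92.1 these were KICS2, a subunit of a complex that restrains mTORC1, with peaks at 567, -111 and -595 bp, NARF, a prelamin-binding factor, with peaks at -1142, -499 and 1258 bp, and DLX6, with peaks at -965, 328 and 895 bp. The 92.1 peaks of these 3 genes stood on 3 to 8 fragments each. OMM2.3 had no peak at any of the 3 promoters, and had one at only 4.93% of all promoters.

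Of 10 genes that feature in the study by themselves or by their proteins, 2 had a promoter peak in 92.1 and 0 in OMM2.3. These counts are too small to set apart from the 15.2% and 4.93% of all promoters. The single-strand binding subunit RPA2 had a 92.1 peak of 5 fragments at -341 bp (fold 3.20, -log10 p 3.52) and no OMM2.3 peak nearer than 7990 bp. CDC27, a subunit of the anaphase-promoting complex, had a 92.1 peak of 5 fragments in an intron that reached into the window with its summit at 1150 bp. In OMM2.3 its nearest summit was at -1708 bp. The other 8 genes, which were APOBEC3B, CDC45, RNASEH1, ATR, CHEK1, RPA1, MCM4 and AURKB, had no promoter peak in either line.

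For APOBEC3B itself the nearest summits were 2427 bp upstream of the start in OMM2.3 and 8017 bp upstream in 92.1. For CDC45, a subunit of the active replicative helicase, the nearest OMM2.3 summit was 5838 bp downstream of the start, within the gene (fold 1.77, 7 fragments). In 92.1 the nearest summit was 4925 bp upstream (fold 3.45, 6 fragments). RNASEH1, which digests the RNA of R-loops, had its nearest summits at 5286 bp in OMM2.3 and -5243 bp in 92.1. The checkpoint kinase genes ATR and CHEK1 were at 8013 and 79680 bp in OMM2.3 and at 10748 and -86471 bp in 92.1.

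Among 45 genes of the replication stress response, 0 promoters were hit in OMM2.3 (0% to 7.87%) and 4 in 92.1 (8.89%, 3.51 to 20.7). The displaced windows of the same genes were hit in 4.24% and 10.3%, and all promoters in 4.93% and 15.2%. The 4 were DBF4, the activator of the CDC7 kinase, with a summit at -490 bp (4 fragments), MCM2, a subunit of the replicative helicase, at -454 bp (3 fragments, in repeated sequence), RPA2, and WEE1, a kinase that holds back mitosis, at 185 bp (4 fragments).

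Of 25 R-loop factors, 1 was hit in OMM2.3 and 3 in 92.1. Those named here were RNASEH2A, the catalytic subunit of RNase H2, in OMM2.3 with 6 fragments at 451 bp, and in 92.1 the helicase genes DDX5 with 3 at 49 bp and DDX19A with 3 at -532 bp. Of the 7 APOBEC3 genes 1 was hit, APOBEC3F in OMM2.3, with 12 fragments at 24 bp in sequence of which 88.9% of the words recurred. The displaced windows of the APOBEC3 genes were hit in 6.52% in OMM2.3 and 15.2% in 92.1. Of 15 genes of the melanocyte lineage 0 were hit in OMM2.3 (0% to 20.4%) and 2 in 92.1, the transcription factor gene PAX3 at -272 bp and the pigment transporter gene SLC45A2 at -623 bp. The displaced windows of the melanocyte lineage genes were hit in 3.51% in OMM2.3 and 9.65% in 92.1. No gene of these 4 lists was hit in both lines, where only 0.816% of all promoters were.

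Larger families gave shares that can be set beside the background of 4.93% in OMM2.3 and 15.2% in 92.1. Of 80 ribosomal protein genes, 21 were hit in 92.1 (26.2%, 17.9 to 36.8) against 14.4% of their displaced windows, and 6 in OMM2.3 (7.50%, 3.48 to 15.4) against 5.99%. RPL11 was hit in both lines, with 4 fragments in OMM2.3 at 1209 bp and 6 in 92.1 at 980 bp. The list was drawn by gene symbol and so holds ribosomal protein-like genes such as RPL7L1 as well.

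Of 69 replication-dependent histone genes, 21 were hit in 92.1 (30.4%, 20.8 to 42.1), a share near that of their displaced windows (32%), which lie in the same gene clusters. In OMM2.3, 2 were hit (2.90%, 0.799 to 9.97) against 13.0% of displaced windows, H2AC4 at -734 bp and H1-3 at 25 bp. In both lines 0 were hit, against 3.61% of their displaced windows and 0.816% of all promoters.

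Of 503 zinc finger genes, 91 were hit in 92.1 (18.1%, 15 to 21.7) against 11.4% of displaced windows, and 24 in OMM2.3 (4.77%, 3.23 to 7.0) against 7.21%. Of 39 proteasome genes, 8 were hit in 92.1 (20.5%, 10.8 to 35.5) against 10.4%, and 1 in OMM2.3 (2.56%) against 4.51%. The families of tissue-restricted genes with CpG-poor promoters were hit less often than the background in 92.1 and near their displaced windows: 34 of 415 olfactory receptor genes (8.19%, displaced 9.60%) and 13 of 149 keratin and keratin-associated genes (8.72%, displaced 9.01%). In OMM2.3 these families had 12 hits (2.89%, displaced 3.23%) and 5 hits (3.36%, displaced 2.50%). Of 95 respiratory chain genes, 13 were hit in 92.1 (13.7%, displaced 13.4%) and 4 in OMM2.3 (4.21%, displaced 5.21%). Of 53 protocadherin genes, 6 were hit in 92.1 (11.3%, 5.29 to 22.6, displaced 7.45%) and 1 in OMM2.3 (1.89%, displaced 3.19%). The families were described only, and no share was tested against another.

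**Figure D4:**
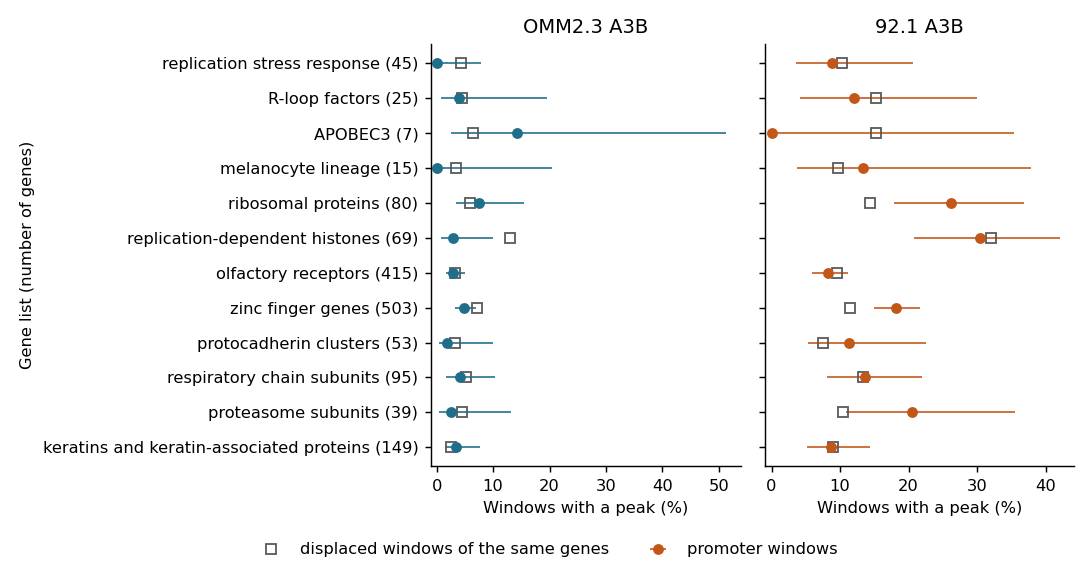
Percent of genes with a promoter peak (horizontal axis) for 12 gene lists (vertical axis, number of genes in brackets) in OMM2.3 A3B and 92.1 A3B. Circles are promoter windows with Wilson 95% intervals and squares the displaced windows of the same genes. In 92.1 the interval lies wholly to the right of the square for ribosomal protein, zinc finger and proteasome genes. In OMM2.3 it lies wholly to the left for histone and zinc finger genes. Every other interval includes its square.

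The direction of each line was spread over chromosomes. The OMM2.3 ratio of promoter to displaced share was below 1 on 18 of 22 chromosomes, from 0.554 on chromosome 9 (11 genes, 0.302 to 1.02) to 1.16 on chromosome 5 (29 genes, 0.792 to 1.71). The 92.1 ratio was above 1 on 20 of 22, from 0.878 on chromosome 13 (36 genes, 0.635 to 1.22) to 1.65 on chromosome 14 (120 genes, 1.38 to 1.98). With any 1 chromosome left out the ratios stayed between 0.852 and 0.872 in OMM2.3 and between 1.28 and 1.31 in 92.1.

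Chromosomes did differ in how often promoters were hit. Chromosome 20 had the highest share in OMM2.3, 10.6%, and chromosome 8 in 92.1, 23.1%, but their displaced windows were hit as often, in 10.5% and 21.3%. The lowest shares were 1.42% on chromosome 9 in OMM2.3 and 6.71% on chromosome 10 in 92.1. For promoters hit in both lines chromosome 14 had the highest ratio of the 18 chromosomes with such a gene. It had 10 genes (1.62% against 0.541% of displaced windows, ratio 3.00, 1.45 to 6.22). Of these, GMPR2, NEDD8 and NEDD8-MDP1 shared the same pair of peaks, and CCNK and SETD3 shared another. The ratio and its interval therefore count some peaks more than once. Without chromosome 14 the ratio of all other chromosomes was 0.977. The number of copies of each chromosome in these lines was not measured here.

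**Figure D5:**
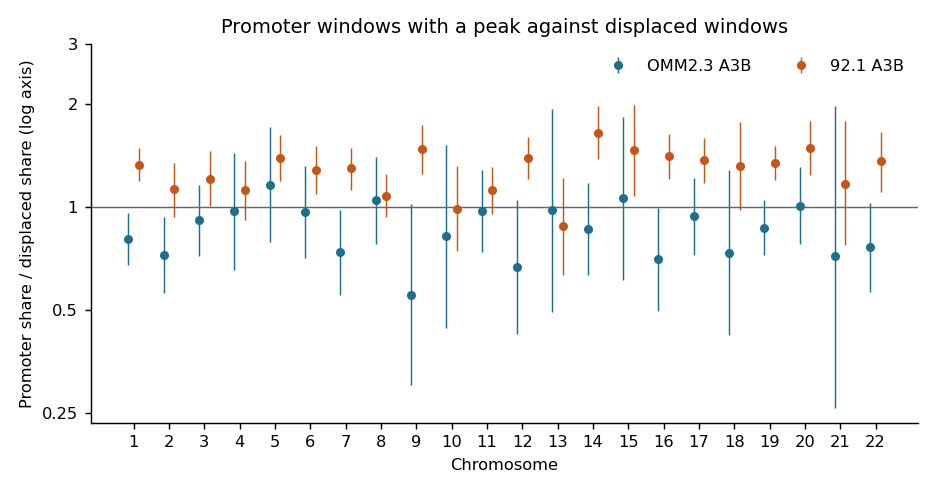
Share of promoter windows with a peak divided by the share of displaced windows (vertical axis, log scale) on each of the 22 chromosomes (horizontal axis), for OMM2.3 A3B and 92.1 A3B, with 95% counting intervals. The line marks 1. Points of 92.1 lie above 1 on 20 chromosomes and points of OMM2.3 below 1 on 18.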

How the data were processed

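Chromatin immunoprecipitation with sequencing was done for A3B and IgG in OMM2.3 and 92.1 cells, 1 library per group. Paired-end reads were checked by the authors (FastQC 0.11.9). They aligned them with Bowtie2 2.2.5 to GRCh38, removed duplicates with Sambamba and called peaks on each A3B library against the IgG of its line with MACS2 2.2.7.1 at p 0.05. Filters on mapping quality or excluded regions are not given in the sources used here, and multiply placed reads can therefore have entered the peaks.

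The deposited score was the integer part of 10 times the −log10 p. The deposited fold enrichment is a ratio of fragments at the summit, scaled by 0.8672 in OMM2.3 and 1.0 in 92.1, to the local IgG background, with 1 added to each. The −log10 p-value and −log10 q-value are as the authors' MACS2 wrote them, and the deposited summit offset counts bases from the peak's start. Coordinates were turned into counts from 1.

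Gene records came from GENCODE 44 on GRCh38, and peak ends lay within its chromosome lengths. Promoter windows, displaced windows, summit densities and base composition were computed in Python 3.11.15 with numpy 2.4.6, pandas 2.3.3, scipy 1.17.1 and numba 0.67.0, and the counting was checked on simulated peak lists. Displaced windows can be shared by neighbouring genes. Fragments per summit were solved from the fold and the −log10 p with a tolerance of 0.002. A peak was in repeated sequence where at least 50% of 9 words of 32 bases, 20 bp apart around the summit, occurred more than once in the genome without alternate contigs, and 10 words were read in the same way in each window.

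Genes named were the 5 highest promoter peaks by −log10 p in each line, the 5 shared genes with the highest lower value, and the 3 with the most peaks per line. Also named were the 5 shared genes nearest to the start, and 10 genes that feature in the study, with list members hit. Ties, which were many, were broken by the higher −log10 p and then by symbol, and by symbol alone for the shared genes with the highest lower value. The members and lists were chosen with earlier results of these data known. Symbols of X-linked genes could not be counted on chromosomes 1 to 22. Values for a few of these genes and sites are not reported here.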

Additional observations from a re-analysis of the deposited data

Results flagged for a closer look

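The share of promoter windows with a peak, divided by that of displaced windows, was 0.860 in OMM2.3 and 1.30 in 92.1, so the lines lay on opposite sides of 1. It is given here because the same comparison went opposite ways in the 2 lines. Each line had 1 A3B library, and whether the lines differed was not tested. Line and library cannot be told apart. The share of promoter peaks in repeated sequence was 11.2% in OMM2.3 and 6.43% in 92.1. With peaks in repeated sequence left out the ratios were 0.980 (0.914 to 1.05) and 1.44 (1.38 to 1.49). In windows without repeated words they were 0.941 (0.861 to 1.03) and 1.30 (1.24 to 1.36). The part of repeated sequence in the contrast between the lines was not tested.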

How the results depend on the processing

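No paired analysis was possible because there was a single library in every group, and no replicate could be left out. Of 59 alternative values for 8 results, 29 stayed within the main value's interval (for gene counts, within 1.5 times the main count), 28 moved further and 2 reversed. The reversals were for peaks with -log10 p of at least 5, where the promoter to displaced ratio was 1.49 in OMM2.3 and 0.869 in 92.1, on 2 and 16 genes, with 0 shared and so no ratio for both lines. The ratios for OMM2.3 and 92.1 were 0.795 and 1.42 with 500 bp either side, 0.953 and 1.15 with 3 kb, and 0.620 and 1.16 standardised to GC, where the ratio for both lines was 0.694 and 127 promoter windows outside the GC range were left out. Over windows not shared with another gene OMM2.3 gave 0.925. Without repeated peaks the ratios were 0.980, 1.44 and, for both lines, 1.28, and in windows without repeated words OMM2.3 gave 0.941. These repeat settings, and those given in the report for positions and CpG groups, were chosen after seeing the data, in place of a planned one on soft-masked bases that was not run because the genome used here is written in capitals throughout.

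Genes with a promoter peak in OMM2.3, 92.1 and both numbered 500, 1891 and 48 with 500 bp either side, 2593, 6199 and 922 with 3 kb, 2828, 6264 and 1307 around every transcript start, and 2, 3 and 0 at a q of at most 0.05. With -log10 p of at least 2 the shared genes were 96. The start of a gene record need not be the start used in these cells, and expression was not measured here. With medians of 6 and 4 fragments per promoter peak, a gene's presence in either list rests on few fragments, and whether it would recur in another library of the same line cannot be said from 1 library.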

Other observations

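Some shared promoters had nearly coincident summits. In 21 of the 156 promoters hit in both lines the nearest summits lay within 100 bp of each other, 19 of them outside repeated sequence. Genes that share a pair of peaks are counted separately here. Summits this close were not counted in displaced windows, so no local expectation is given. Peaks of the lines overlapped in 31.4% of promoters and 27.5% of displaced windows hit in both. These genes were picked out after their values were seen. At SLC22A12, the urate transporter of the kidney, the summits were 1 bp apart at -934 and -935 bp, with folds of 2.95 in OMM2.3 and 1.95 in 92.1. At SLC6A19, an amino acid transporter of gut and kidney, they were 10 bp apart at -852 and -862 bp (folds 3.26 and 2.36), at TTLL6, a tubulin polyglutamylase, 14 bp apart at 385 and 371 bp (2.48 and 2.56), and at GDPD5 26 bp apart at 650 and 624 bp (2.83 and 3.20). The neighbours DUSP15 and TTLL9 shared 1 pair of peaks 21 bp apart, and CD52 and UBXN11 another 39 bp apart.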
